A study of Mus musculus with 18 samples.

Results

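The kallikreins of the epidermis and the inhibitor that holds them in check were followed through chemical skin carcinogenesis. The set was Klk5, Klk6, Klk7, Klk8, Klk9, Klk10, Klk11, Klk13, Klk14 and Spink5, which made 10 of the 52636 genes in the count table. The genes were chosen by name as one protease system, and Klk6 and Klk7 were chosen because they had been seen to change differently from treated skin to tumor in the 2 genotypes. Levels of Klk6 and Klk7 in treated skin and tumors are therefore given as a description, without a test, and the other 8 genes were tested. RNA-seq had been run on mouse epidermal cells of 6 groups, with 3 columns of counts per group. Replicates 2 and 3 of mock ΔEP skin held the same counts throughout and were used once, which left 17 libraries and n = 2 for that group. Control mice carried floxed Zfp36 alleles (Zfp36 fl/fl), and their littermates had lost Zfp36 through a Cre under the human keratin 14 promoter (labelled Zfp36 ΔK14, here ΔEP), which acts in all keratin 14 lineages of the skin and not in epidermis between follicles alone. Mice were C57BL/6 and 8 weeks old when DMBA was first applied. Mock skin had received no carcinogen. Treated skin was nontumoral skin after DMBA, a mutagen, and repeated TPA, a phorbol ester that promotes tumors, although one label calls these cells treated tumoral keratinocytes. Tumors were papillomas of mice given the same protocol. The labels name whole skin as the source, whereas the methods describe live EpCAM+ cells sorted after exclusion of CD45, CD140a and CD31. Nothing in the labels ties a library to 1 animal, so p-values measure the spread between these libraries.

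Kallikreins are secreted serine proteases made as inactive proenzymes. In the outer epidermis KLK5 can activate itself and other kallikreins, and KLK5, KLK7 and KLK14 cut the proteins of corneodesmosomes so that dead cells can be shed. SPINK5 encodes LEKTI, a multidomain inhibitor that blocks several of these enzymes, and people who lack it have Netherton syndrome, in which the skin barrier fails. KLK7 cuts like chymotrypsin, whereas KLK5, KLK6, KLK8, KLK13 and KLK14 cut like trypsin. The protein made by Zfp36, tristetraprolin, binds AU-rich elements in 3′ untranslated regions and promotes mRNA decay.

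The kallikreins lay side by side in GRCm38 at chr7:43690418-43851181, a span of 160.8 kb on the plus strand that held 10 coding genes, all of them kallikreins. From the first start site to the last the order was Klk14, Klk13, Klk12, Klk11, Klk10, Klk9, Klk8, Klk7, Klk6 and Klk5. The start of Klk13 was 22.1 kb and that of Klk11 84.2 kb from that of Klk14, and Klk10, Klk9, Klk8, Klk7, Klk6 and Klk5 started at 90.6, 101.5, 107.2, 120.9, 134.1 and 151.6 kb. Klk6, Klk7 and Klk5 were thus the 3 last genes of the row. Promoters are shown for 4 genes of this row, namely Klk6 and Klk7, whose levels in tumors differed by genotype, and Klk8 and Klk10, which rose in tumors of both. They are the bases before the annotated start, from RefSeq on GRCm38.p6, plus strand, at chr7:43824294-43824498 for Klk6, chr7:43811044-43811293 for Klk7, chr7:43797327-43797576 for Klk8 and chr7:43780804-43781034 for Klk10. Capitals mark GC boxes (GGGCGG, or CCGCCC on the other strand).
Klk6: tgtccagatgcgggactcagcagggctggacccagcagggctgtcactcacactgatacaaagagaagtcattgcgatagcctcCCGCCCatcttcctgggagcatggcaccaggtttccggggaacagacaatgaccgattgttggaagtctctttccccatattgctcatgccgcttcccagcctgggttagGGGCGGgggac
Klk7: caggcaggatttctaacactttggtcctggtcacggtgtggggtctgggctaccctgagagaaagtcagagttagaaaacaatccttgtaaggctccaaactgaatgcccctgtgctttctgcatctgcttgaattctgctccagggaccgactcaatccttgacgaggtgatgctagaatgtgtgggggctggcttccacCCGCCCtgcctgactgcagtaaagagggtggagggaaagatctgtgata
Klk8: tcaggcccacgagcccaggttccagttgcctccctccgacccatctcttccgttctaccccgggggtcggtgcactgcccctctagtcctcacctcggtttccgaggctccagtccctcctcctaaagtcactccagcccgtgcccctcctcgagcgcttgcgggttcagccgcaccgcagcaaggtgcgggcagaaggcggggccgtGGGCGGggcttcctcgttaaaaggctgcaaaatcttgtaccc
Klk10: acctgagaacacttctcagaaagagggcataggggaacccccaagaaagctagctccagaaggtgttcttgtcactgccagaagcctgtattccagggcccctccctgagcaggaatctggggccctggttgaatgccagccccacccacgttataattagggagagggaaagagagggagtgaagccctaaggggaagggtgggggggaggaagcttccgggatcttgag

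A set of 5 motifs was searched on both strands, and 27025 RefSeq promoters of the same table served as background. GC boxes occurred in 32.9% of those promoters, CCAAT in 34.5%, TATAAA in 13%, TGANTCA (the AP-1 site) in 6.87% and AACCNGTT (bound by grainyhead factors) in 1.71%. Klk6 had GC boxes on both strands, Klk7 and Klk8 had 1 each, and Klk10 had none of the motifs. A match describes these letters only. Each gene's longest 3′ untranslated region was searched for AU-rich elements. The heptamer TATTTAT that tristetraprolin prefers was found in 0 of the 10 genes, and in 27.4% of 21130 mouse genes. The regions were 53 to 907 bases long in the kallikreins and 1660 in Spink5. Since the background was not matched for length, nothing is read from this difference. The shorter ATTTA, present in 65.7% of genes, occurred once each in Klk5, Klk7 and Klk13 and 3 times in Spink5. The sites of the kallikreins are printed with ATTTA in capitals, since they are the nearest that these mRNAs come to the heptamer.
Klk5: cgtcacccagATTTAgacctcaaat
Klk7: atagtagattATTTAcatgggagtt
Klk13: ccctcagactATTTAccccttggca

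Total counts ran from 2808550 to 9617985 per library. Zfp36 was at 151.6 to 713 CPM (normalized read count on TMM-scaled library sizes) in fl/fl libraries of all stages and at 10.03 to 38.4 CPM in ΔEP libraries. A count of 0 allows up to 3 counts, which was 0.289 to 1.5 CPM depending on the library. Of the libraries, 3 stood apart. Replicate 1 of mock skin in each genotype had low summed CPM of suprabasal keratinocyte markers (723 and 611, against 5895 to 7907 in the other mock libraries). The first fl/fl tumor library was the shallowest and differed from the other fl/fl tumors in its markers, as given beside the tumor results. Basal keratinocyte markers summed to at least 3468 CPM in every library. Leukocyte markers stayed at 10.2 to 177 CPM and endothelial markers at 8.59 to 39.5 CPM, whereas fibroblast markers reached 1673 CPM in mock skin. Fewer cells of a type and less RNA per cell cannot be told apart in such samples.

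In mock skin the inhibitor was on average the most abundant of these mRNAs per kb of exon, and Klk11 the most abundant protease. Spink5 stood at 13.7 ± 10.3 CPM per kb (SD, n = 3) in fl/fl and 9.43 ± 8.55 (n = 2) in ΔEP. Klk11 stood at 9.42 ± 7.70 and 8.57 ± 9.0 CPM per kb. Klk7 and Klk10 followed, at 4.85 ± 1.62 and 4.72 ± 2.90 CPM per kb in fl/fl. The ranges of all neighbours in this order overlapped in fl/fl skin. Klk6 was close to absent, with exactly 1 count in each of the 5 mock libraries. Klk14 had 2 counts in 1 mock library and 0 in the others.

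The means hid a split between the libraries of mock skin. Klk11 was at 0.996, 18.2 and 22.3 CPM in fl/fl and at 3.24 and 21.9 CPM in ΔEP. Spink5 was at 9.40, 100.2 and 87.2 CPM in fl/fl and at 16.2 and 74.0 CPM in ΔEP. Klk10 was at 1.88, 8.81 and 8.77 CPM in fl/fl and at 2.97 and 15.4 CPM in ΔEP. In each case replicate 1 was the lowest of its genotype, and the part of the marker differences in this was not tested. Klk7 went the other way in ΔEP, at 16.7 CPM in replicate 1 and 2.16 CPM in replicate 2, and was at 11.9, 5.87 and 9.73 CPM in fl/fl. None of the 10 genes was called between genotypes in mock skin, where 7 had enough counts for the test (a call was an adjusted p under 0.05 with a fold over 2 in edgeR's quasi-likelihood test). The share of all 15920 tested genes called was 0%. At an unadjusted p under 0.05 there were 0 members and 253 genes in all. DESeq2 and edgeR's exact test also called 0 members, and 3 and 2 genes in all.

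In treated skin Klk7 was the leading kallikrein mRNA. It held 40.6% to 54.7% of the summed kallikrein CPM per kb in all 6 treated libraries. It also led in replicate 1 of mock skin of both genotypes (47.3% and 46.3%), whereas Klk11 led in the other 3 mock libraries. Klk7 was at 43.0, 28.4 and 11.7 CPM in treated fl/fl skin and at 42.0, 159.8 and 106 CPM in treated ΔEP skin. Mock levels lay below these in ΔEP, and overlapped them narrowly in fl/fl. The log2 difference from mock was 1.60 (SE 0.51) in fl/fl and 3.41 (SE 0.94) in ΔEP, given without a test.

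Klk6, a trypsin-like kallikrein also made in the nervous system, went from a single count per library to levels that could be measured. It was at 4.54, 1.75 and 0.782 CPM in treated fl/fl skin and at 6.26, 45.4 and 9.94 CPM in treated ΔEP skin. Every ΔEP library was above every fl/fl library, and ΔEP replicate 2 was far above the others. On summed counts the treated level was 21.3 times the mock level in fl/fl (95% exact counting interval 6.92 to 106) and 74.8 times in ΔEP (20.6 to 620). These intervals cover counting error only.

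The other kallikreins did not pass the test from mock to treated skin. Of the 8 tested by rule, 6 had enough counts in fl/fl and 7 in ΔEP, and 0 were called in either genotype, where 0% of all genes were called. DESeq2 and the exact test also called 0 of them. They called 0.711% and 0.626% of all genes in fl/fl and 0.447% and 0.422% in ΔEP. At an unadjusted p under 0.05 there were 0 in fl/fl and 1 in ΔEP, beside 913 of 16601 and 763 of 15891 genes in all. That one was Klk8, a trypsin-like kallikrein also known as neuropsin. It was at 7.47, 7.43 and 1.82 CPM in treated fl/fl skin and at 6.26, 19.1 and 32.7 CPM in treated ΔEP skin, against 2.54 to 4.34 CPM in all mock libraries. The log2 difference in ΔEP was 2.30 (SE 0.74, edgeR adjusted p = 0.865). Klk11 and Spink5 had lower averages in treated than in mock fl/fl skin, with log2 differences of -1.88 (SE 1.09) and -1.20 (SE 0.86) that did not pass (edgeR adjusted p = 0.888 and 0.894). Without mock fl/fl replicate 1 both were called lower, at -2.48 (SE 0.54, edgeR adjusted p = 0.0170) and -1.72 (SE 0.45, adjusted p = 0.0318) on the log2 scale, in a fit that called 15.1% of all genes. Suprabasal markers were at 759 to 4764 CPM in the treated fl/fl libraries and at 5895 to 7907 CPM in the 2 mock libraries of that fit, and their part was not tested.

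**Figure D1:**
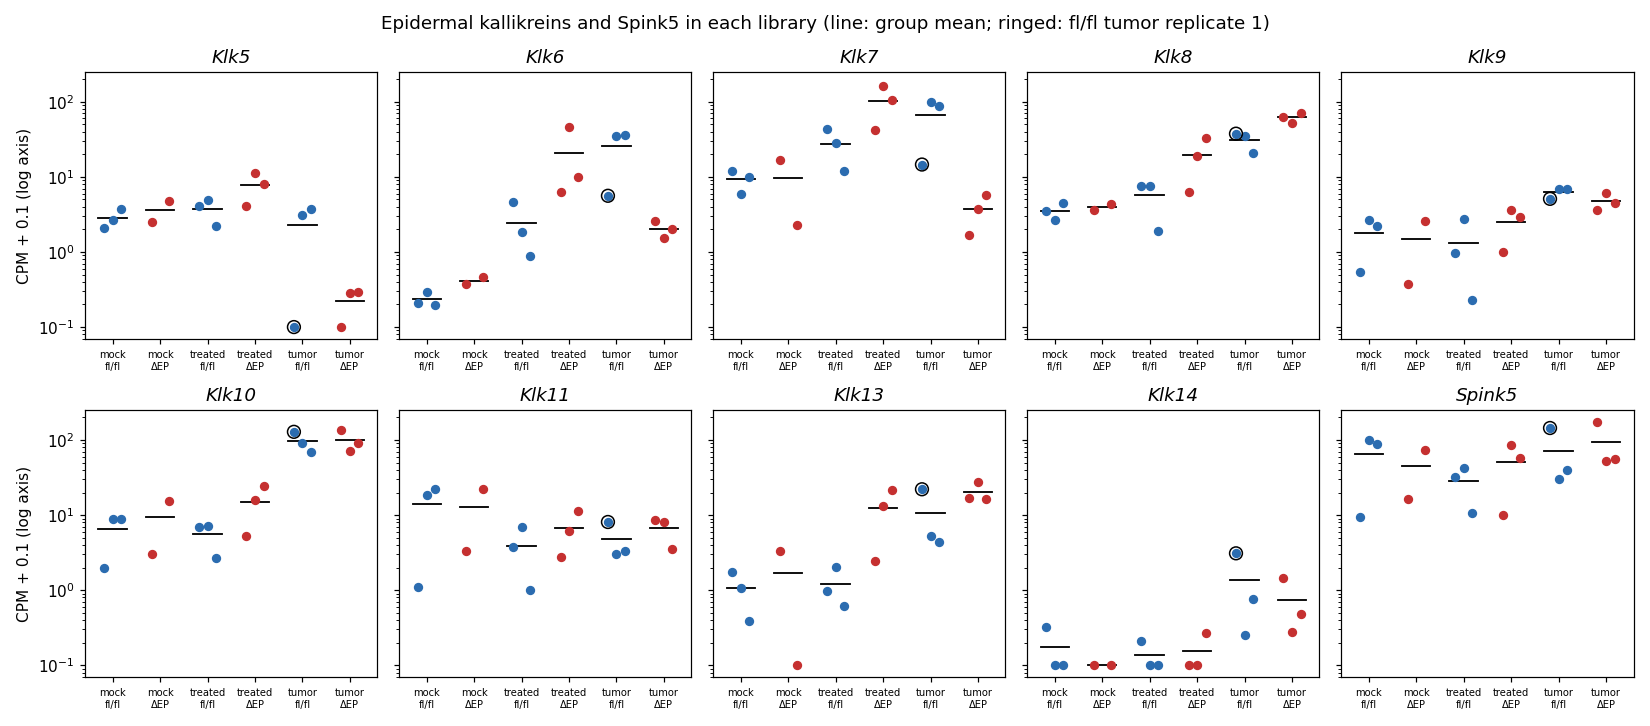
CPM + 0.1 (log axis) of each kallikrein and of Spink5 in the 17 libraries by group, blue for fl/fl and red for ΔEP, with a line at the group mean and a ring on fl/fl tumor replicate 1. Klk5, Klk6 and Klk7 sit lower in ΔEP tumors than in treated ΔEP skin, though Klk6 in ΔEP tumors lies above mock skin and Klk7 overlaps mock ΔEP skin. Klk8 and Klk10 sit high in all 6 tumors. The ringed library lies nearer the ΔEP tumors for Klk5, Klk6, Klk7 and Klk13.

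Between the genotypes, all 7 members tested in treated skin had higher estimates in ΔEP, with a median log2 difference of 1.18 against 0.016 over all genes tested. These members share the same libraries, and all but Spink5 are neighbours in the cluster, so they are not independent points. None was called by edgeR's quasi-likelihood test, in a comparison where 0.00616% of all genes were called. There were 4 with an unadjusted p under 0.05, namely Klk5, Klk8, Klk10 and Klk13, beside 901 of all 16232 genes tested. Klk13 differed most, at 0.866, 1.97 and 0.521 CPM in fl/fl and at 2.33, 13.1 and 21.4 CPM in ΔEP. The groups did not overlap, and the log2 difference was 3.54 (SE 0.81, edgeR adjusted p = 0.816). DESeq2 and edgeR's exact test each called Klk13 (adjusted p = 0.00206 and 0.0132) and no other member, as did the quasi-likelihood test without treated ΔEP replicate 1 (4.03, adjusted p = 0.0453). These fits called 36 and 44 of 16232 genes and 12 of 16969 genes in all. Klk5, which can start the activation cascade, was at 4.0, 4.81 and 2.08 CPM in fl/fl and at 3.93, 11.2 and 7.92 CPM in ΔEP. These overlapped, with a log2 difference of 1.09 (SE 0.45, edgeR adjusted p = 0.897). By description, Klk6 and Klk7 differed by 3.05 (SE 0.86) and 1.87 (SE 0.55) on the log2 scale. Treated ΔEP replicate 1 was the lowest of its group in all members other than Klk14. Its basal keratinocyte markers summed to 3479 CPM, against 6393 and 12760 CPM in the other 2, and its melanocyte markers to 374 CPM, against 61.1 and 64.2 CPM. Treated ΔEP replicate 3 had leukocyte markers at 177 CPM and suprabasal markers at 9866 CPM, the highest in any library. In treated fl/fl skin, replicate 3 was the lowest of its group in all members other than Klk14. Its suprabasal markers summed to 759 CPM, against 2428 and 4764 CPM in the other 2. The part of these marker differences was not tested.

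In tumors Klk10 was the leading kallikrein mRNA. The gene is also known as NES1, from normal epithelial cells. Klk10 was at 129, 91.2 and 69.9 CPM in fl/fl tumors and at 135, 70.4 and 90.3 CPM in ΔEP tumors. The highest level outside tumors was 24.1 CPM, so tumors of both genotypes stood clear of all skin libraries. In fl/fl, Klk10 rose by 3.87 (SE 0.59) from mock and by 4.10 (SE 0.41) from treated skin on the log2 scale (edgeR adjusted p = 0.0210 and 0.00144). In ΔEP it rose by 3.37 (SE 0.70) and 2.63 (SE 0.48), with edgeR adjusted p = 0.0285 and 0.00420. The tumors of the 2 genotypes overlapped, with a log2 difference of -0.09 (SE 0.31, edgeR adjusted p = 0.915). The rises from mock skin were sensitive to single libraries. In fl/fl they lost the call without mock replicate 2 or 3 or tumor replicate 2 or 3 (adjusted p = 0.0706 to 0.0940), and in ΔEP without any 1 of the tumors (0.0893 to 0.0960).

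Klk8 rose in tumors as well. It was at 37.5, 34.7 and 20.6 CPM in fl/fl tumors and at 62.0, 52.8 and 70.2 CPM in ΔEP tumors. Every ΔEP tumor was above every fl/fl tumor, and every tumor was above the treated fl/fl and all mock libraries. From treated skin Klk8 rose by 2.45 (SE 0.49) in fl/fl and by 1.58 (SE 0.46) in ΔEP on the log2 scale (edgeR adjusted p = 0.0127 and 0.0263). From mock skin it rose by 3.10 (SE 0.39) and 3.89 (SE 0.33), with edgeR adjusted p = 0.0127 and 0.00461. The difference between tumor genotypes was 0.86 (SE 0.26) and was not called (edgeR adjusted p = 0.243). Without fl/fl tumor replicate 1 it was 1.03 (SE 0.25, adjusted p = 0.0173), where 16.9% of all genes were called. The rise from mock skin in fl/fl was lost without mock replicate 2 or 3 or tumor replicate 2 (adjusted p = 0.0559 to 0.0798). The rise from treated skin in ΔEP was lost without treated replicate 2 or tumor replicate 1 or 3 (adjusted p = 0.0586 to 0.0817).

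Klk13 and Klk9, a chymotrypsin-like family member, had higher averages in tumors too, at lower levels. Klk13 was at 22.0, 5.17 and 4.25 CPM in fl/fl tumors and at 16.7, 27.5 and 16.1 CPM in ΔEP tumors. It rose from treated skin in fl/fl by 3.19 (SE 0.78, edgeR adjusted p = 0.0238) and not detectably in ΔEP (0.62, SE 0.59, adjusted p = 0.437), where treated skin already reached 21.4 CPM. Against mock skin the rise passed in ΔEP (3.41, SE 0.89, edgeR adjusted p = 0.0484) and not in fl/fl (3.32, SE 0.88, adjusted p = 0.0709). These calls are weak. The fl/fl call was lost without any 1 of the treated libraries (0.0507 to 0.103), and the ΔEP call without any 1 of the tumors (0.122 to 0.159). Klk9 was at 5.0, 6.70 and 6.86 CPM in fl/fl tumors and at 3.57, 5.97 and 4.36 CPM in ΔEP tumors. It rose from treated skin in fl/fl by 2.50 (SE 0.72, edgeR adjusted p = 0.0396), where 1 treated library held a single count, and this call was lost without treated replicate 1 or 3 or tumor replicate 2 or 3 (0.0806 to 0.165). Klk14 did not pass the count filter in any comparison, yet 6 of 6 tumors had at least 1 count, with up to 3.0 CPM, against 3 of 11 skin libraries.

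Klk5 fell in ΔEP tumors. It was at 3.93, 11.2 and 7.92 CPM in treated ΔEP skin, at 2.43 and 4.67 CPM in mock ΔEP skin, and at 0, 0.181 and 0.189 CPM in ΔEP tumors. The tumors held 2 counts between them, against 155 in treated skin, a ratio of 61.7 (95% exact counting interval 16.8 to 514). On the log2 scale Klk5 fell by 5.77 (SE 0.72) from treated skin and by 4.56 (SE 0.78) from mock skin (edgeR adjusted p = 0.000991 and 0.0183). The first call held without any 1 library, and the second was lost without any 1 of the tumors (0.0590 to 0.0740). In fl/fl tumors Klk5 was at 0, 3.04 and 3.59 CPM, and it differed from treated skin by -0.56 (SE 0.70, edgeR adjusted p = 0.581). Replicate 1 of these had 0 counts, which allows up to 1.5 CPM. Too few libraries held Klk5 for a test between tumor genotypes in the pairwise fit. On summed counts the fl/fl level was 20.4 times that of ΔEP (5.19 to 176). Without fl/fl tumor replicate 1 the gene could be tested and was lower in ΔEP by 4.51 (SE 0.72) on the log2 scale (edgeR adjusted p = 0.00203), in the fit that called 16.9% of all genes. Fits without any 1 of the ΔEP tumors, and 1 fit over all groups, also tested 7 members and called 0. They called 0% to 0.668% of all genes.

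Klk6 and Klk7 are the members that showed this contrast by choice. Klk6 was at 5.50, 35.3 and 36.3 CPM in fl/fl tumors and at 2.45, 1.45 and 1.89 CPM in ΔEP tumors. Every fl/fl tumor was above every treated fl/fl library, and every ΔEP tumor was below every treated ΔEP library. The log2 change from treated skin to tumor was 3.39 (SE 0.79) in fl/fl and -3.55 (SE 0.80) in ΔEP. Klk7 was at 14.5, 98.2 and 86.6 CPM in fl/fl tumors and at 1.56, 3.62 and 5.68 CPM in ΔEP tumors. The ΔEP tumors lay below all treated libraries, and fl/fl tumor replicate 1 lay within the treated fl/fl range while replicates 2 and 3 lay above it. The changes from treated skin were 1.26 (SE 0.67) in fl/fl and -4.91 (SE 0.59) in ΔEP. Every mock library was below every tumor in Klk6, at 0.0964 to 0.359 CPM. On summed counts Klk6 in tumors was 249 times the mock level in fl/fl (95% exact counting interval 84.4 to 1212). In ΔEP it was 6.15 times the mock level (1.56 to 53.2). Klk7 in ΔEP tumors overlapped mock ΔEP skin (2.16 to 16.7 CPM), and in fl/fl tumors it lay above mock fl/fl skin. Between tumor genotypes Klk6 and Klk7 were lower in ΔEP by -3.90 (SE 0.68) and -4.34 (SE 0.74), and by -4.32 (SE 0.29) and -4.75 (SE 0.34) without fl/fl tumor replicate 1.

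The difference between the genotypes in the change from treated skin to tumor was -6.90 (SE 1.23) for Klk6, -6.14 (SE 1.01) for Klk7 and -5.18 (SE 1.18) for Klk5 on the log2 scale. For the members further up the row it was -2.55 (SE 1.08) for Klk13, -1.67 (SE 0.91) for Klk9, -1.46 (SE 0.67) for Klk10, -0.85 (SE 0.72) for Klk8 and -0.32 (SE 0.95) for Klk11. For Spink5, which lies on another chromosome, it was -0.49 (SE 1.09). This contrast chose Klk6 and Klk7, so no test is given for any member. By the same rule as above 0 of the other 7 were called, where 0.0118% of all genes were called, and nothing is read from that count. The 3 largest differences belonged to the 3 genes at one end of the cluster. Since 2 of these, Klk6 and Klk7, were chosen by this contrast, nothing is read from their position. The kallikreins are also neighbouring genes and not independent points, and Klk14 had no value here. An antisense transcript, 2310002F09Rik, named after its values were seen, overlaps Klk14, Klk13, Klk11, Klk10, Klk9 and Klk8 but not Klk7, Klk6 or Klk5. Its level was 0.664 to 5.49 CPM in mock and treated libraries, 3.0 to 5.55 CPM in fl/fl tumors and 6.44 to 7.24 CPM in ΔEP tumors. Overlap was taken from whole gene spans, and shared exons were not looked at. Whether counting used strand is not stated for these libraries either, so whether reads of that transcript entered the kallikrein counts is not known.

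**Figure D2:**
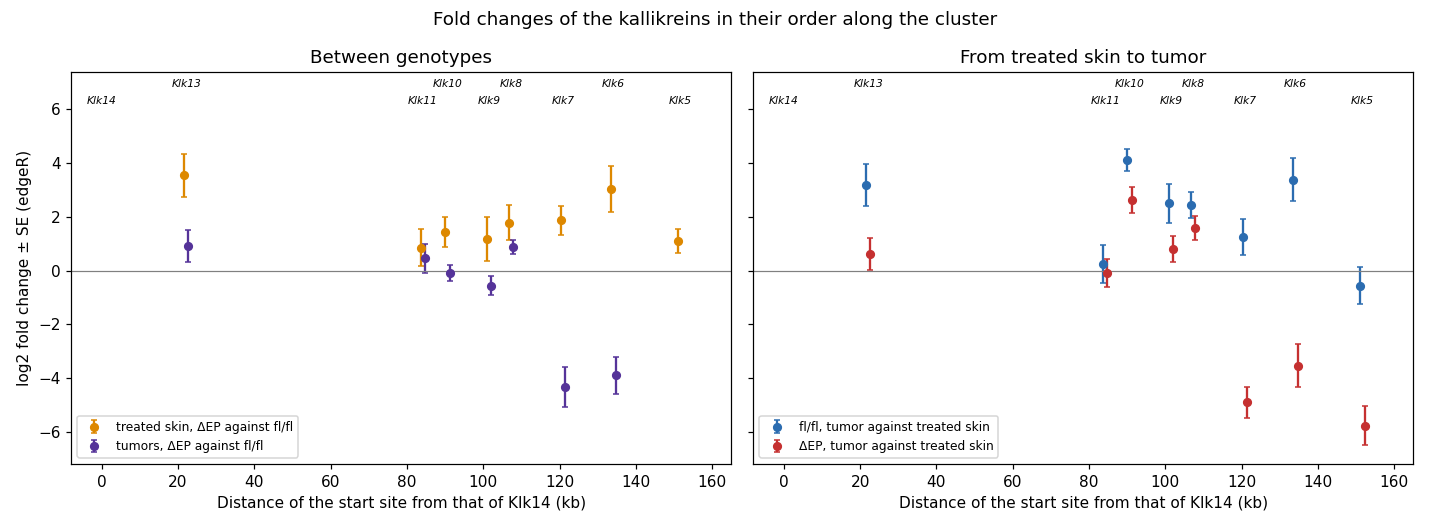
Log2 fold changes with SE of the kallikreins against the distance of each start site from that of Klk14 (kb), between genotypes on the left and from treated skin to tumor on the right. Klk7, Klk6 and Klk5 at the right-hand end lie at -4.91, -3.55 and -5.77 in ΔEP tumors against treated skin, and Klk6 and Klk7 were chosen for this change. Klk10 and Klk8 lie above 0 in both genotypes. Klk5 had too few counts for the tumor genotype contrast and Klk14 for any.

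In counts, 2 of the 7 members tested by rule were called from mock skin to tumor in fl/fl (Klk8 and Klk10, both higher), where 4.11% of all genes were called. From treated skin to tumor in fl/fl it was 4 of 7 (Klk8, Klk9, Klk10 and Klk13, all higher), against 18% of all genes. In ΔEP it was 4 of 7 from mock skin (Klk8, Klk10 and Klk13 higher, Klk5 lower), against 14.3%, and 3 of 7 from treated skin (Klk8 and Klk10 higher, Klk5 lower), against 26%. Between tumor genotypes it was 0 of 6, against 0.0284%. Klk8 alone had an unadjusted p under 0.05, beside 1975 of all 14067 genes tested. DESeq2 and the exact test called 0 of the 6, and 2.6% and 2.62% of all genes. Without fl/fl tumor replicate 1 the quasi-likelihood count was 3 of 7, in a fit that called 16.9% of all genes. These were Klk5, lower in ΔEP, and Klk8 and Klk13, higher in ΔEP. Without any 1 of the ΔEP tumors it was 0 of 7, where at most 0.0455% of all genes were called. The genotype difference in the change from mock skin to tumor was called for 0 of 7 (0% of all genes). Klk5 alone had an unadjusted p under 0.05 (-4.36, SE 1.34, edgeR adjusted p = 0.535), beside 1423 of all 17388 genes tested. DESeq2 called 0 members and 0.178% of all genes. The genotype difference in the change from mock to treated skin was called for 0 of 7 (0% of all genes). At an unadjusted p under 0.05 there were 0 members, beside 257 of all 17694 genes tested. DESeq2 called 0 members and 0% of all genes. Since these comparisons share libraries, their counts are not independent of each other.

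Fl/fl tumor replicate 1 resembled the ΔEP tumors in markers too. Basal keratinocyte markers summed to 33550 CPM in that library and to 26700 to 28360 CPM in ΔEP tumors, against 8914 and 8944 CPM in the other fl/fl tumors. Sebaceous gland markers summed to 115 CPM in that library and to 76.0 to 117 CPM in ΔEP tumors, against 626 and 1008 CPM. Hair follicle markers were at 518 CPM, and at 359 to 566 CPM in ΔEP tumors, against 1241 and 1490 CPM. Suprabasal markers, by contrast, overlapped between all of them, at 967 to 2438 CPM in fl/fl and 1899 to 2912 CPM in ΔEP tumors. Leukocyte markers were at 16.9 to 34.0 CPM in fl/fl and 61.0 to 90.7 CPM in ΔEP tumors. The part of these marker differences in the levels of Klk5, Klk6 and Klk7 was not tested.

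The make-up of kallikrein mRNA was measured as shares of the summed CPM per kb of the 9 genes. Klk5, Klk6 and Klk7 together held 59.0% and 56.8% in replicate 1 of mock fl/fl and mock ΔEP skin, 13.7% to 23.4% in the other 3 mock libraries and 53.5% to 77.3% in the 6 treated libraries. In fl/fl tumors they held 7.52%, 44.2% and 49.6%, and in ΔEP tumors 1.55%, 2.73% and 3.42%. Klk8, Klk10 and Klk13 together held 27.5% to 39.5% in mock and 18.6% to 38.1% in treated libraries. They held 85.0%, 52.0% and 45.3% in fl/fl tumors and 92.6%, 88.5% and 92.2% in ΔEP tumors. Klk10 was the largest in all 6 tumors, at 34.9% to 62.4%. These shares include Klk6 and Klk7 and are a description.

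**Figure D3:**
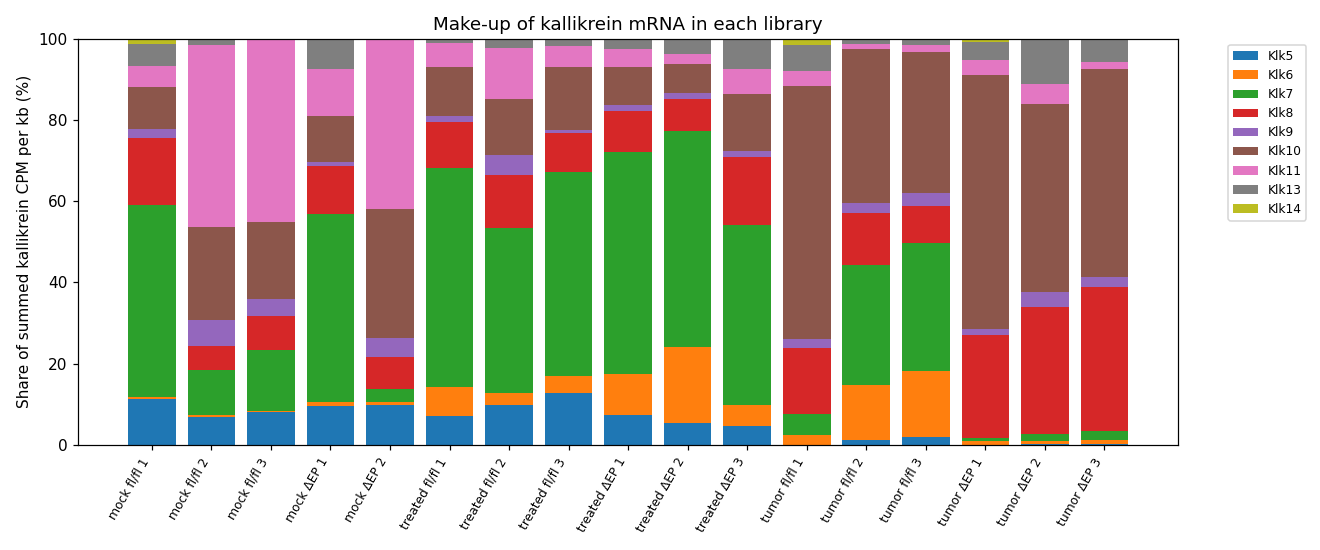
Share (%) of each of the 9 kallikreins in their summed CPM per kb of exon, 1 bar per library. Klk7 (green) leads in all treated libraries and Klk10 (brown) in all tumors, and Klk5, Klk6 and Klk7 together hold 1.55% to 3.42% in ΔEP tumors.

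Within each group of tumors the order of levels per kb differed. In ΔEP tumors Klk10 (71.8 ± 24.1 CPM per kb, SD, n = 3) stood above Klk8 (40.0 ± 5.66) without overlap. Klk8 overlapped Spink5 (19.6 ± 14.3), which overlapped Klk13 (8.75 ± 2.79), and below a gap came Klk11, Klk9, Klk7 and Klk6, with Klk5 last (0.0924 ± 0.0801). In fl/fl tumors Klk10 (70.3 ± 21.6) was followed by Klk7 (35.0 ± 23.9), Klk8 (20.1 ± 5.89) and Klk6 (17 ± 11.6), and the range of each overlapped that of the next.

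Spink5 itself did not pass the test in any comparison with all libraries and the low-count filter. Without that filter it was called higher in tumors than in treated skin in fl/fl (1.22, SE 0.31, edgeR adjusted p = 0.00144) and than in mock skin in ΔEP (1.13, SE 0.36, adjusted p = 0.0194), in fits that called 12.9% and 13.1% of all genes. Without mock ΔEP replicate 2 the second difference was 2.53 (SE 0.76, edgeR adjusted p = 0.0405), where 22% of all genes were called. It was at 31.9, 42.4 and 10.4 CPM in treated fl/fl skin and at 9.84, 84.8 and 58.3 CPM in treated ΔEP skin. In tumors it was at 145, 30.6 and 39.2 CPM in fl/fl and at 172, 52.5 and 55.9 CPM in ΔEP. Within each genotype the ranges of the 3 stages overlapped. The ratio of summed kallikrein to Spink5 CPM per kb was 6.79, 1.33 and 1.86 in mock fl/fl skin and 5.63 and 2.30 in mock ΔEP skin. It was 6.31, 4.17 and 5.64 in treated fl/fl skin and 19.7, 8.95 and 10.4 in treated ΔEP skin, without overlap. In tumors it was 4.97, 27.4 and 17.8 in fl/fl and 4.37, 10.1 and 11 in ΔEP, which overlapped. The ratio holds Klk6 and Klk7 and was not tested, and mRNA ratios do not measure protease activity.

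**Figure D4:**
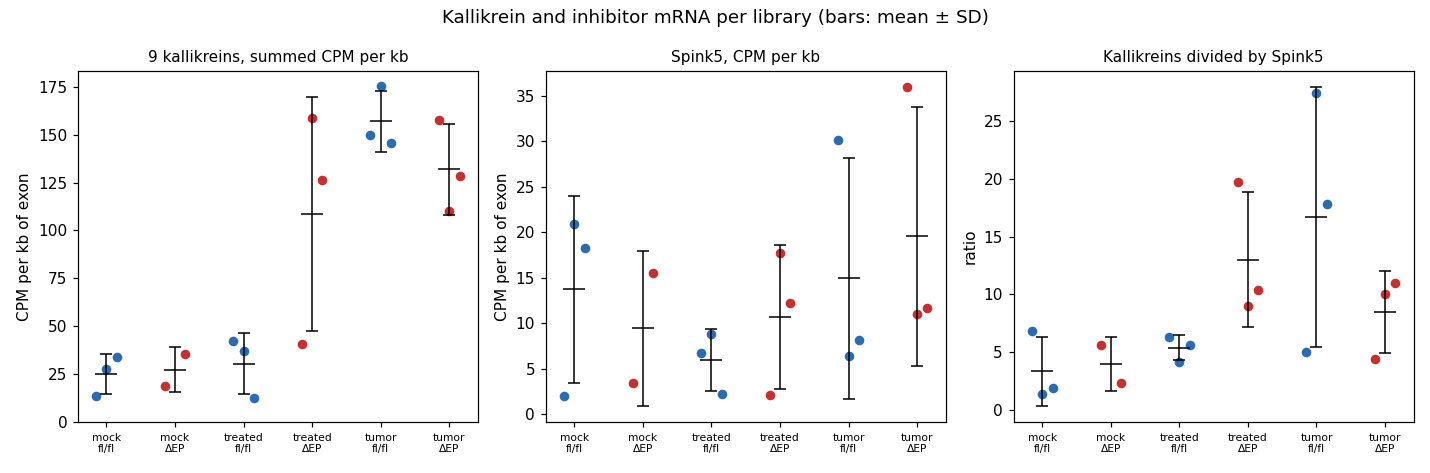
Summed CPM per kb of the 9 kallikreins, CPM per kb of Spink5, and their ratio in each library, with the mean ± SD of each group. The ratio is 8.95 to 19.7 in treated ΔEP skin and 4.17 to 6.31 in treated fl/fl skin, and in tumors the genotypes overlap.

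Members differed in how they went together over the 17 libraries, which share stage and genotype, so correlations of log2 CPM are a description. Klk8 and Klk10 went together most closely (Pearson's r = 0.903), followed by Klk9 with Klk10 (0.881) and Klk8 with Klk13 (0.869). Klk6 with Klk7 had r = 0.752 and Klk5 with Klk7 0.647, whereas Klk5 was opposed to Klk10 (-0.558) and Klk8 (-0.504). Klk11 was nearest to Spink5 (0.801). Outside the family, the genes most like Klk6 among 18252 were Msrb3, a methionine sulfoxide reductase (0.931), Psph, the last enzyme of serine synthesis (0.879), H6pd (0.855), Slc28a3 (0.848) and Ephx3 (0.837). Those most like Klk7 were Slc3a1 (0.865), Chil1 (0.851), Myo5b (0.841), Gm38384 (0.830) and Slc39a11 (0.829). Msrb3 was at 22.0 to 55.5 CPM in fl/fl tumors and 11.9 to 15.9 CPM in ΔEP tumors. Chil1, a chitinase-like protein, was at 29.5 to 140.2 CPM in treated ΔEP skin and 5.47 to 12.8 CPM in treated fl/fl skin. In tumors Chil1 overlapped between genotypes, at 2.0 to 46.4 CPM in fl/fl and 2.17 to 7.80 CPM in ΔEP. Since these genes were picked for likeness to genes chosen by a genotype contrast, nothing is read from their genotype differences.

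Other genes of the system were followed in 4 lists. Of 16 proteases around the cascade, 7 to 9 were tested in each pairwise comparison, and calls were made from skin to tumor alone. In fl/fl tumors 1 of 8 was called against mock skin, and 1 higher and 1 lower of 8 against treated skin. All genes were called at 4.11% and 18% there. In ΔEP tumors it was 2 of 9 against each, where 14.3% (mock) and 26% (treated) of all genes were called. In fl/fl Tmprss11e, a membrane serine protease, rose from both mock and treated skin (4.08 and 2.40, edgeR adjusted p = 0.0493 and 0.0207) and Prss8, an activator of epithelial sodium channels, fell by 1.23 from treated skin (adjusted p = 0.0468). In ΔEP Tmprss11e rose from both (5.14 and 2.61), Tmprss11g rose from mock skin (5.98) and Plau, urokinase, rose from treated skin (3.00, SE 0.44, edgeR adjusted p = 0.00189). Of 14 inhibitors other than Spink5, 3 or 4 were tested. In fl/fl tumors 1 of 4 was called against mock and 1 of 3 against treated skin, and in ΔEP tumors 1 of 3 against each, beside the same shares of all genes. One of them, Slpi, rose in all 4 comparisons of tumors with skin, by 4.91 (SE 0.36) to 6.62 (SE 1.0) on the log2 scale, and reached 192 ± 128 CPM in tumors of fl/fl mice and 226 ± 47.0 CPM in those of ΔEP mice (SD, n = 3 each). SLPI inhibits several serine proteases of leukocytes and skin.

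Of 12 substrates and receptors, calls were all lower in tumors. Dsg1a, a desmoglein that kallikreins can cut, fell in all 4 comparisons, by 1.82 (SE 0.31) to 3.28 (SE 0.64). Against mock skin the list had 1 of 8 called in fl/fl tumors, where 4.11% of all genes were called. In ΔEP tumors it was 3 of 6 against mock skin, where 14.3% of all genes were called. From treated skin to tumor it was 1 of 8 in fl/fl, against 18% of all genes, and 4 of 7 in ΔEP, against 26%, where Dsg1c fell by 2.17, Flg, the filament-binding protein of cornified cells, by 4.79 (SE 1.12) and Dsc1 by 1.40 (edgeR adjusted p = 0.00484, 0.0113 and 0.0498). The median over the tested genes of this list was -0.65 in fl/fl and -1.40 in ΔEP, against -0.025 and -0.027 over all genes. Of 15 genes of late differentiation, 3 of 14 were called from treated skin to tumor in fl/fl (Tgm1, Grhl3 and Asprv1, all higher), a share near the 18% of all genes. In ΔEP 4 of 14 were higher, among them Grhl3, Klf4 and Tgm1, and 3 lower, where 26% of all genes were called. Among those lower was Casp14, the caspase that helps to degrade filaggrin (-2.63, SE 0.56, edgeR adjusted p = 0.00747). Against mock skin 2 of 15 were higher in fl/fl tumors and 3 of 14 in ΔEP tumors, beside 4.11% and 14.3% of all genes. None of the genes in these lists was called between genotypes or from mock to treated skin, where 0 to 0.0284% of all genes were called. The other 28 kallikrein rows, which include the glandular kallikreins and Klk12 inside the cluster, were too low to test. Of these 20 had 0 counts everywhere, and the highest single count was 16.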

How the data were processed

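RNA-seq libraries of sorted epidermal cells (Ovation SoLo kit) were analysed from raw counts per gene that the authors deposited. The labels' processing notes name Trimmomatic 0.36, STAR 2.5.3, HTSeq 0.9.1, DESeq2 and the build mm10, whereas the name of the count table points to featureCounts and the study's methods name edgeR, so which counter made the counts is not clear. Use of strand and removal of duplicates are not given in the sources used here, so counts of overlapping genes are uncertain. The exact counting intervals cover counting error only, whereas edgeR's SE and p-values measure the spread between libraries. Columns outside the design numbered 0. Genes were filtered with filterByExpr, scaled by TMM and tested two-sided with edgeR 4.0.16 (quasi-likelihood F test, limma 3.58.1, R 4.3.3), with Benjamini-Hochberg adjustment over all genes tested and pairwise fits on the groups compared. Genotype differences between stages were contrasts over 4 groups. CPM used TMM-scaled sizes, and correlations log2 CPM with a prior count of 2. Lengths and 3′ untranslated regions came from GENCODE, promoters from RefSeq. Procedures were tested on simulated data. The genes, lists and tests were chosen with earlier results of these data known. All 10 genes are named, with up to 4 called genes per list and comparison by smallest p, and the 5 genes most like Klk6 and Klk7.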

Additional observations from a re-analysis of the deposited data

Results flagged for a closer look

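Klk6 moved in opposite directions in the genotypes from treated skin to tumor. All 3 fl/fl tumors lay above all 3 treated fl/fl libraries, and all 3 ΔEP tumors lay below all 3 treated ΔEP libraries. The difference between the 2 changes was -6.90 on the log2 scale. It was not tested, because Klk6 had been chosen for this pattern. Groups of 3 libraries were too small to look for single outlying values.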

How the results depend on the processing

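Over 102 pairs of a gene and a comparison and 1452 alternative values, the sign changed somewhere in 28 pairs, and no called value changed sign. Counts of called members moved as follows. Between treated genotypes the count of 0 became 1 with DESeq2, 1 with the exact test and 3 without a low-count filter, while all genes called went from 1 to 36, 44 and 218. Between tumor genotypes 0 became 2 without the filter (all genes 4 to 1393). From mock skin to tumor in fl/fl 2 became 4 with DESeq2 and 4 with the exact test, and 1 with a replicate block (all genes 632 to 2201, 2058 and 244). From treated skin to tumor in fl/fl 4 became 6 without the filter (all genes 2764 to 4316, or 18% to 12.9% of those tested). From mock to treated skin in ΔEP 0 became 2 without the filter (all genes 0 to 212). From mock skin to tumor in ΔEP 4 became 2 at a mean count of at least 10 (all genes 2144 to 1789). For the genotype difference from treated skin to tumor, which chose 2 of the genes, 0 became 1 with DESeq2 and 3 without the filter. All genes called went from 2 to 230 and 1003 there, and nothing is read from these member counts.

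With 1 library left out, the counts ran from 0 to 1 between treated genotypes, 0 to 3 between tumor genotypes, 0 to 2 from mock to treated skin and 0 to 4 from mock skin to tumor in fl/fl, 2 to 4 from treated skin to tumor in fl/fl, 1 to 5 from mock skin to tumor and 2 to 3 from treated skin to tumor in ΔEP, and 0 to 1 for the genotype difference from treated skin to tumor. They stayed at 0 to 0 in the other comparisons. The share of all genes called ranged with them, from 0% to 16.9% between tumor genotypes, 0% to 15.1% from mock to treated skin in fl/fl and 0.181% to 21% from mock skin to tumor in fl/fl. It was 0% to 0.0707% between treated genotypes. From treated skin to tumor it was 7.21% to 24.3% in fl/fl and 17.5% to 29.2% in ΔEP. Without any 1 of the ΔEP tumors 1 member was called against mock ΔEP skin, where the share was 0.709% to 2.75%. For the genotype difference from treated skin to tumor the share was 0% to 7.53%, and nothing is read from its member counts. An arm of 1 mock ΔEP library was assumed to vary like the other group. Counting the identical columns as 2 libraries was added after seeing the data and left the count of 4 from mock skin to tumor in ΔEP.

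The labels number replicates alike across groups. Deviations of same-numbered libraries correlated at -0.55 to 0.78, and of the 6 comparisons with 3 pairs, 0 had all pairs over 0.1. The 3 comparisons with mock ΔEP skin had 2 pairs each, too few for that criterion, and in 2 of them both pairs exceeded 0.1. The numbers were not taken as pairs. With the replicate block tumors had 1 (against mock) and 3 (against treated skin) called in fl/fl, where 1.59% and 11.9% of all genes were called. In ΔEP it was 3 and 3, against 6.24% and 25.4%, and other comparisons had 0. All genes called between mock genotypes went from 0 to 110 and from mock to treated ΔEP skin from 0 to 43. The causes of these moves were not tested. Depth limits Klk5, Klk6 and Klk14, whose lowest groups held at most a few counts per library.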
